A study of Arabidopsis thaliana with 20 samples.

Results

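The genes described here are 44 genes of *Arabidopsis* that encode late embryogenesis abundant (LEA) proteins and dehydrins, out of 33557 genes with a value in the data. They were taken from a list of gene identifiers of the LEA families that include EM1, EM6, RAB18 and the dehydrins, and the rule uses no measured value, although the list was drawn up with earlier results of these data known. Seeds were sampled 20 hr after plating on a germination medium that held no addition (MS, the mock control), 5 µM paclobutrazol (PAC), 5 µM PAC and 10 µM of gibberellin (GA), 0.7 mg/ml of an extract of the *Pseudomonas aeruginosa* strain PAO1, or that extract and 10 µM of GA. Each treatment was applied to WT (Col-0) seeds and to Δdella seeds, which are in the same Col-0 background and carry mutations in 5 genes (*rgl2*, *rga*, *gai*, *rgl1* and *rgl3*), giving 10 groups with 2 biological replicates each. Whole seeds were used, so that fewer cells of a type and less RNA per cell cannot be told apart. The values are FPKM (fragments per kilobase of transcript, scaled to the mapped reads of a library), 1 value per gene and group with the replicates already pooled, so no SD is given and no test over replicates was made here for any difference below.

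LEA proteins are small, very hydrophilic and mostly unfolded proteins that accumulate while the embryo dries on the mother plant and are degraded after germination. They are thought to protect membranes and enzymes during water loss, and dehydrins and some other LEA proteins are also made in vegetative tissue under cold, drought or abscisic acid (ABA). Many LEA genes are activated through ABA by the bZIP factor ABI5, which binds ABA-responsive elements. GA promotes germination by removing the DELLA proteins, and PAC blocks the synthesis of GA.

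Differences are given as differences of log2(FPKM + 1), which understates the change of genes with low values, and a gene is called at least 2-fold different at a difference of 1 or more in either direction. The background of each comparison is all genes with at least 1 FPKM in 1 of the 2 groups compared, and only members that reach this level are counted as measured. Of the 44 members, 30 reached 1 FPKM in all 10 groups and 8 in some groups only. The other 6 stayed under 1 FPKM everywhere and enter no comparison. They are AT3G53770, AT4G13230 and AT5G38760, listed at 0 in all groups, and AT2G03740, AT5G27980 and AT2G33690, with at most 0.0364, 0.143 and 0.291 FPKM.

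The summed FPKM of all genes lay between 882351 and 988764, and the depth in reads is unknown. The DELLA genes mutated in Δdella seeds, which checks the labels, summed to 429 FPKM in WT and 52.0 FPKM in Δdella seeds on MS, and all 5 were at least 2-fold lower. Seed storage protein and oleosin genes (5 listed, all measured) summed to 657, 8410, 1380, 2560 and 340 FPKM in WT seeds on MS, PAC, PAC and GA, extract, and extract and GA, and to between 49.1 and 122 FPKM in the Δdella groups. These values move with those of several members below, and their part in the members' differences was not tested. Of 3 endosperm genes, EPR1, MAN7 and EXPA2 were at 932, 60.6 and 1580 FPKM in WT seeds on MS and at 1200, 20.8 and 338 FPKM on PAC. In Δdella seeds on MS these 3 genes were at 360, 82.0 and 1390 FPKM, and EPR1 alone was at least 2-fold lower than in WT seeds. The part of these genes' differences in the results was not tested. Of 3 genes of photosynthetic tissue, CAB2 was at 0.306 FPKM at most and CAB3 at 1.86 FPKM at most, whereas RBCS1A was between 1150 and 1970 FPKM.

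The 250 bases before the annotated start of each gene (RefSeq annotation of TAIR10.1, matched by locus tag for all 44 members) were searched on both strands for ACGTG, the core of the ABA-responsive element (ABRE), and for CATGCA, the RY element known from seed maturation genes, with overlapping matches counted as 1 site. An ABRE core was present in 33 of the 44 members (75.0%) and in 6288 of 27443 protein-coding genes (22.9%). At least 2 sites were found in 52.3% of members and 4.98% of all genes, and at least 3 sites in 27.3% and 1.1%. The RY element was found in 20.5% of members and 8.43% of all genes. With starts taken from the deposited loci in place of RefSeq, the ABRE core shares were 72.7% and 24.9%, and the RY shares 20.5% and 7.82%. Some windows run into a neighbouring gene, for example that of RAB18 into AT5G66410 and that of LTI30 into AT3G50960. A match is a description of these letters and not evidence of a bound site.

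**Figure D1:**
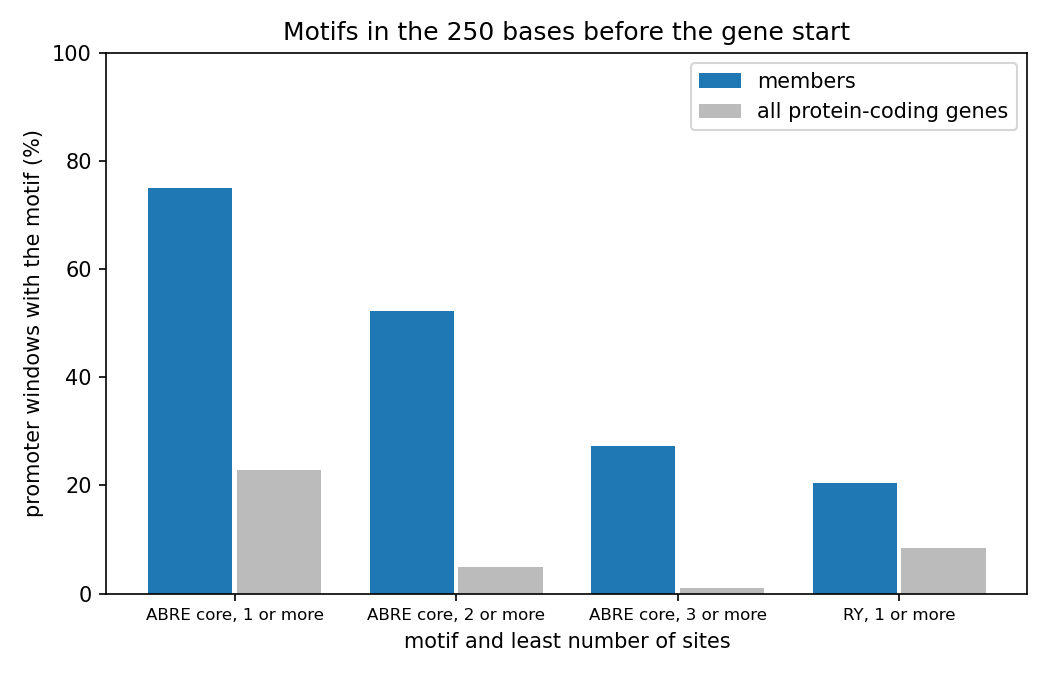
Share of promoter windows (250 bases before the gene start, in %) that hold the ABRE core at least 1, 2 or 3 times or the RY element at least 1 time, for the 44 members and for all 27443 protein-coding genes. The members' bars stand at 75.0, 52.3, 27.3 and 20.5%, above 22.9, 4.98, 1.1 and 8.43% for all genes.

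The windows of 5 genes are shown because they stand for the main patterns below, with the motif matches in capitals and each read 5′ to 3′ on the strand of its gene (TAIR10.1). EM1, EM6 and AT2G42560 were higher with PAC and extract and lower in Δdella seeds, LEA7 was higher in Δdella seeds, and ERD10 was lower with PAC.
EM1, chr3:19214472-19214721, plus strand: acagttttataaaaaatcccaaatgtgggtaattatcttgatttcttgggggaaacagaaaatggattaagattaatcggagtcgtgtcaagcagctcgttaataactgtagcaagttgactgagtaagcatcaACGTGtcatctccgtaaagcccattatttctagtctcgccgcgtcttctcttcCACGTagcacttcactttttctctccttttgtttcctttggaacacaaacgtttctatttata
EM6, chr2:16780369-16780618, minus strand: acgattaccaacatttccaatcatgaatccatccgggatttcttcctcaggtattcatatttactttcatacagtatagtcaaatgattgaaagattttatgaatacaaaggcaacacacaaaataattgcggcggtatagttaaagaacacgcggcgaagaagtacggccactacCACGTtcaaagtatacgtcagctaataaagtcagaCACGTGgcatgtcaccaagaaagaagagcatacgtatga
AT2G42560, chr2:17716913-17717162, minus strand: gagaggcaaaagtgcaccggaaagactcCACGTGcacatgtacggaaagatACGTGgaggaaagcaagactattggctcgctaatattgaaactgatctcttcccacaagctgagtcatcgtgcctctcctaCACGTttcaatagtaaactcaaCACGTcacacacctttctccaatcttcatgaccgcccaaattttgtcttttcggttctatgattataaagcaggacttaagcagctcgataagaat
LEA7, chr1:19619474-19619723, plus strand: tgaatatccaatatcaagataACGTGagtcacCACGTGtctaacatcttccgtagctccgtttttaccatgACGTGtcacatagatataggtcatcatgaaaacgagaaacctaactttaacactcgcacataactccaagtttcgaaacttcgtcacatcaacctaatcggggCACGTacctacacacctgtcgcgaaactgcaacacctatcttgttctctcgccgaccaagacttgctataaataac
ERD10, chr1:7089607-7089856, minus strand: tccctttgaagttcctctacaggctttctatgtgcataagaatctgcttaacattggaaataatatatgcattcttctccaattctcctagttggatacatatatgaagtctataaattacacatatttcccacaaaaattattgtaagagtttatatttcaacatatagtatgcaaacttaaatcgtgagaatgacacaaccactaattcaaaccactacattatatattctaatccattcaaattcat
The windows of EM1, EM6, AT2G42560 and LEA7 hold 2, 2, 4 and 4 ABRE core sites. That of ERD10 holds neither motif. The sites did not follow these patterns in every member. ECP31 (AT3G22500) and LTI30, also higher with PAC and extract and lower in Δdella seeds, have no ABRE core site. AT4G38410, lower with PAC like ERD10, has 2.

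The Em genes encode the most hydrophilic class of LEA proteins, made late in seed maturation. In the order MS, PAC, PAC and GA, extract, and extract and GA, EM1 (AT3G51810, chr3:19214748-19215831 of TAIR10 as deposited, 2 exons) was at 20.7, 129, 32.4, 63.0 and 29.9 FPKM in WT seeds and at 8.48, 9.99, 10.1, 19.8 and 20.8 FPKM in Δdella seeds. EM6 (AT2G40170, chr2:16779552-16780258, 2 exons) was at 34.3, 137, 29.2, 128 and 36.7 FPKM in WT seeds and at 11.5, 9.9, 12.6, 34.2 and 33.9 FPKM in Δdella seeds. Both genes were highest in WT seeds on PAC, next highest in WT seeds on extract alone, and lowest in Δdella seeds without extract, where PAC made little difference. In WT seeds EM1 was 6.24 times and EM6 4.01 times its MS level with PAC.

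Among the 10 dehydrins, RAB18, the ABA-responsive member (AT5G66400, chr5:26518277-26519242), followed the Em genes. It was at 121, 517, 120.2, 306 and 90.0 FPKM in WT seeds and at 35, 38.6, 31.0, 86.2 and 89.0 FPKM in Δdella seeds. LTI30 (AT3G50970), a cold-induced dehydrin, was likewise highest in WT seeds on PAC and extract, with 4.6, 12.6, 5.04, 12.0 and 5.16 FPKM in WT seeds and 1.31, 1.49, 1.55, 5.39 and 6.37 FPKM in Δdella seeds. AT2G21490 was at 45.0, 242, 79.6, 121 and 81.6 FPKM in WT seeds and at 32.3, 43.0, 39.6, 83.4 and 70.7 FPKM in Δdella seeds. AT4G39130, one of the lowest dehydrins, was at 1.15, 3.84, 1.33, 4.34 and 2.25 FPKM in WT seeds and reached 7.01 FPKM in Δdella seeds on extract, its highest value. All 4 were higher on extract than on MS in each genotype. RAB18 overlaps the opposite-strand gene AT5G66410 (between 37.0 and 59.1 FPKM) by 11 exonic bases, and the sources used here do not say whether reads were counted by strand.

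The acidic dehydrins COR47 and ERD10, induced by cold and drought in vegetative tissue, lie next to each other on chromosome 1 and went the other way with PAC. COR47 (AT1G20440) was at 132, 61.9, 163, 189 and 190.4 FPKM in WT seeds and between 174 and 219 FPKM in Δdella seeds. ERD10 (AT1G20450) was at 6.36, 2.56, 5.35, 6.24 and 8.12 FPKM in WT seeds and between 5.61 and 7.1 FPKM in Δdella seeds. AT4G38410, another dehydrin, was at 3.07, 0.375, 1.83, 2.83 and 3.0 FPKM in WT seeds and between 7.05 and 9.19 FPKM in Δdella seeds. For these 3 genes WT seeds on PAC were the lowest of all 10 groups. The remaining dehydrins were XERO1, at 80.7 FPKM in WT seeds on MS and 229 FPKM on PAC, ERD14, at 17.7 and 18.2 FPKM, and AT1G54410, at 181 and 226 FPKM.

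**Figure D2:**
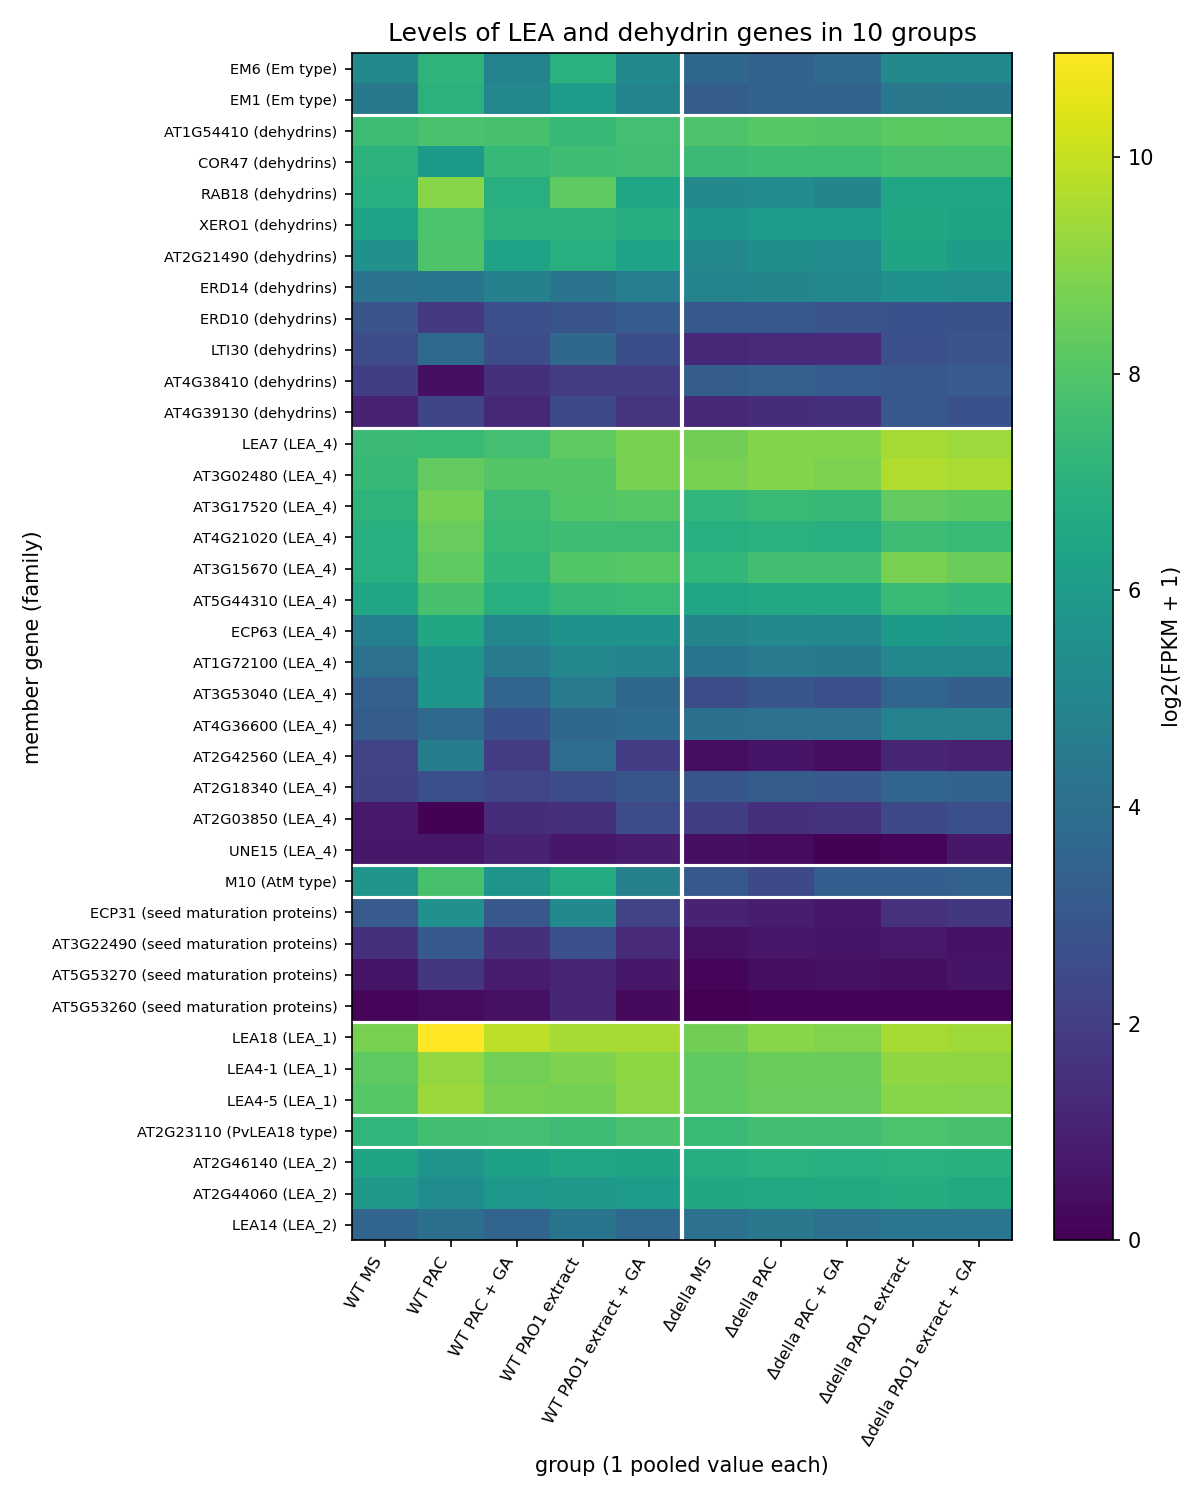
Level of the 38 members that reached 1 FPKM in at least 1 group, as log2(FPKM + 1) by colour, with genes in rows by family and the 10 groups in columns, 1 pooled value each. The WT PAC column is the brightest for EM1, EM6, RAB18 and LEA18 and the darkest for COR47, ERD10 and AT4G38410, and LEA7 and AT3G02480 are brightest in Δdella seeds on extract.

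The 3 highest members in WT seeds on MS were the LEA_1 genes LEA18, LEA4-1 and LEA4-5, a family of which LEA4-5 is known from the vegetative response to water deficit. LEA18 (AT2G35300) was at 432, 1990.3, 930.0, 728 and 726 FPKM in WT seeds and at 379, 513, 468, 744 and 669 FPKM in Δdella seeds, and ranked 330th among all genes in WT seeds on MS and 31st on PAC. LEA4-1 (AT1G32560) was at 297, 579, 399.8, 456 and 545 FPKM in WT seeds and LEA4-5 (AT5G06760) at 267, 643, 417, 406 and 529 FPKM. In Δdella seeds they lay between 309 and 559.5 FPKM and between 299 and 522 FPKM. Of 36 measured members, LEA18 alone was at least 2-fold higher with PAC and GA than on MS in WT seeds.

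LEA_4 is the largest family here, with 17 genes for proteins that form helices on drying, of which 14 reached 1 FPKM. AT2G42560 was at 3.76, 23.2, 2.77, 13.9 and 2.95 FPKM in WT seeds and at 0.343, 0.551, 0.322, 1.26 and 1.01 FPKM in Δdella seeds. AT3G53040 was at 9.13, 54.7, 10.9, 21.0 and 11.8 FPKM in WT seeds and at 5.03, 6.71, 5.37, 10.8 and 8.92 FPKM in Δdella seeds. ECP63 (AT2G36640), named after a carrot protein of embryogenic cells, was at 25.2, 90.7, 33.1, 48.4 and 46.5 FPKM in WT seeds and between 30.5 and 61.8 FPKM in Δdella seeds. These 3 genes were highest in WT seeds on PAC.

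Another set of LEA_4 genes was highest in Δdella seeds. LEA7 (AT1G52690) was at 175, 172, 202, 298 and 425 FPKM in WT seeds and at 388, 487, 479.8, 713 and 656 FPKM in Δdella seeds. AT3G02480 was at 159.9, 321, 262, 261 and 425 FPKM in WT seeds and at 419, 492, 447, 807 and 754 FPKM in Δdella seeds. AT2G03850 was at 0.68, 0.0407, 1.63, 1.83 and 4.85 FPKM in WT seeds and at 3.04, 1.86, 2.08, 4.36 and 5.41 FPKM in Δdella seeds. In WT seeds all 3 were higher with extract and GA than with extract alone, in contrast to the Em genes. AT3G15670 was at 119, 306, 151, 253 and 269 FPKM in WT seeds and reached 419 FPKM in Δdella seeds on extract. LEA7 overlaps the opposite-strand gene AT1G52695, listed at 0.0368 FPKM at most, by 21 exonic bases.

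The other LEA_4 genes with at least 1 FPKM had intermediate patterns. AT3G17520, AT4G21020, AT5G44310 and AT1G72100 were at 139, 120.3, 89.2 and 16.5 FPKM in WT seeds on MS and at 408, 342, 215 and 52.6 FPKM on PAC, and all 4 were highest there. AT2G18340 and AT4G36600 were at 3.5 and 8.51 FPKM in WT seeds on MS and were highest in Δdella seeds on extract, at 10.9 and 28.4 FPKM. AT2G18340 overlaps the opposite-strand gene AT2G18350, between 2.65 and 3.89 FPKM, by 98 exonic bases. UNE15 (AT4G13560) reached 1.08 FPKM in WT seeds on PAC and GA only. In RefSeq, 3.62% of its stretches of 50 bases occur at other places in the genome. That RefSeq model has 4151 exonic bases and is longer than the deposited locus (chr4:7879561-7880383), so the share may differ for the deposited gene. Its exons overlap the genes AT4G06105 and AT4G06110 by 346 bases in sum.

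The LEA_2 genes encode proteins less hydrophilic than other LEA proteins. AT2G44060 and AT2G46140 were at 60.5 and 83.0 FPKM in WT seeds on MS, were lowest in WT seeds on PAC, at 38.9 and 51.0 FPKM, and reached at most 108 and 127 FPKM, in Δdella seeds. On PAC both were at least 2-fold higher in Δdella than in WT seeds, by 1.31 and 1.3 on the log2 scale. LEA14 (AT1G01470) lay between 10.8 and 19.7 FPKM in the 10 groups. AT2G23110, of the PvLEA18 type, lay between 147 and 229 FPKM.

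The AtM gene M10 (AT2G41280), known from maturing seeds, was at 51.6, 219.9, 49.3, 107 and 26.5 FPKM in WT seeds and at 7.14, 4.29, 8.76, 8.64 and 9.43 FPKM in Δdella seeds. ECP31 (AT3G22500), a seed maturation protein named after a carrot protein of embryogenic cells, was at 7.84, 45.3, 6.82, 35.9 and 3.78 FPKM in WT seeds and between 0.646 and 2.42 FPKM in Δdella seeds. Its neighbour AT3G22490 was at 1.83, 7.56, 1.77, 5.34 and 1.52 FPKM in WT seeds and between 0.391 and 0.694 FPKM in Δdella seeds. For each of these 3 genes all 5 Δdella groups lay below the lowest WT group. AT5G53270 reached 1 FPKM in WT seeds on PAC (2.35 FPKM) and on extract (1.25 FPKM) only. AT3G22490 overlaps the opposite-strand gene AT3G22480 (between 124 and 151 FPKM) by 25 exonic bases.

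**Figure D3:**
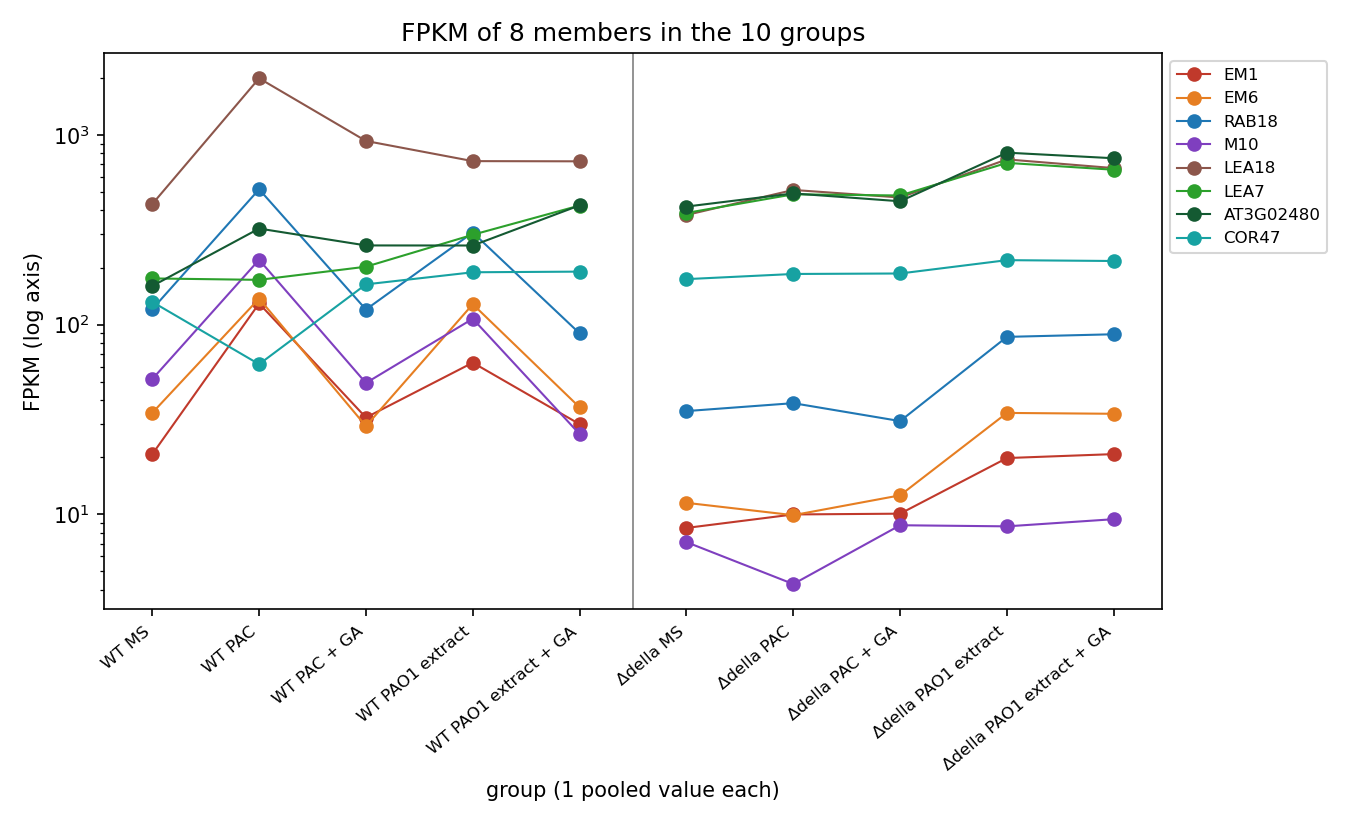
FPKM on a log axis of 8 members in the 5 WT groups and the 5 Δdella groups, 1 pooled value each, with lines that only join the values of a gene. EM1, EM6, RAB18 and M10 peak in WT seeds on PAC and again on extract, LEA7 and AT3G02480 stand at 425 FPKM in WT seeds on extract and GA and above it in 4 of 5 Δdella groups, and COR47 dips to 61.9 FPKM in WT seeds on PAC.

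The question of how the members responded to a block of GA synthesis was addressed by comparing PAC with MS. In WT seeds 22 of 35 measured members were at least 2-fold higher with PAC, against 3.25% of all measured genes, and 3 were at least 2-fold lower, against 4.32%. The median difference was 1.27 over members and 0.01 over all genes. The largest were those of EM1 (2.58), AT3G53040 (2.46), AT2G21490 (2.40), ECP31 (2.39) and AT2G42560 (2.34), and the lower members were COR47 (-1.08), ERD10 (-1.05) and AT4G38410 (-1.56). By family, both Em genes, 5 of 10 dehydrins, 9 of 12 LEA_4 genes, M10, 3 of 3 seed maturation proteins and 2 of 3 LEA_1 genes were higher but none of the 3 LEA_2 genes. The members' share of the summed FPKM was 0.311% on MS and 0.836% on PAC, and 0.264% and 0.611% without LEA18. All 5 storage genes were also at least 2-fold higher with PAC.

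In Δdella seeds none of 33 measured members was 2-fold different between PAC and MS, where 0.435% of all genes were higher and 0.359% lower. The median difference was 0.17, and the differences ran from -0.62 for M10 to 0.44 for LEA18. The share of the summed FPKM was 0.374% on MS and 0.417% on PAC.

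GA added to PAC was compared with PAC alone and with MS in WT seeds. Against PAC, 16 of 37 members were at least 2-fold lower (1.96% of all genes) and 3 higher (3.03%), with a median of -0.92. The higher members were COR47 (1.38), AT4G38410 (1.04) and AT2G03850 (1.34). Against MS, 1 of 36 members was higher (0.544% of all genes), LEA18 with 1.1, and none was lower (0.43%), with a median of 0.28. EM6, RAB18 and M10 differed from MS by -0.22, -0.01 and -0.07, and EM1 by 0.62.

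Extract was then compared with MS. In WT seeds 13 of 37 members were at least 2-fold higher (1.0% of all genes) and none lower (0.561%), with a median of 0.75 over members and 0.01 over all genes. The largest differences were those of ECP31 (2.06), EM6 (1.87), AT2G42560 (1.65) and EM1 (1.56), followed by AT2G21490 (1.41), RAB18 (1.34), AT4G39130 (1.31) and LTI30 (1.22). AT3G22490 (1.16), AT3G53040 (1.12), AT3G15670 (1.08), M10 (1.04) and AT5G53260 (1.02) completed the set. AT5G53260 reached 1 FPKM in this group only and shares 62 stretches of 50 bases with AT5G53270, so its value is uncertain. Of the storage genes, 4 of 5 were also at least 2-fold higher with extract.

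In Δdella seeds 8 of 34 members were at least 2-fold higher with extract (0.885% of all genes) and none lower (0.621%), with a median of 0.81. They were AT4G39130 (1.78), EM6 (1.5), LTI30 (1.47), AT3G15670 (1.45), AT2G21490 (1.34), RAB18 (1.28), EM1 (1.13) and AT3G17520 (1.1). Of these, 7 were also higher in WT seeds, in comparisons that share no group, which is 7 of 13 in WT and 7 of 8 in Δdella seeds. The same overlap over all genes was not computed, so it is unknown whether such sharing is particular to the members. Of the 6 called in WT seeds only, AT3G53040 (0.97), AT2G42560 (0.75), ECP31 (0.51) and M10 (0.24) had smaller differences in Δdella seeds. AT3G22490 and AT5G53260 stayed under 1 FPKM there. The added 1 FPKM lowers such differences where levels are low. As ratios of FPKM to MS, AT3G53040 was at 2.29 in WT and 2.15 in Δdella seeds, ECP31 at 4.58 and 1.81, and M10 at 2.08 and 1.21. AT2G42560 went from 3.76 to 13.9 FPKM in WT and from 0.343 to 1.26 FPKM in Δdella seeds. With a pseudocount of 0.1, 11 of 34 members were called in Δdella seeds. The difference between genotypes was not tested. Of the storage genes, 2 of 5 were at least 2-fold higher with extract in Δdella seeds.

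**Figure D4:**
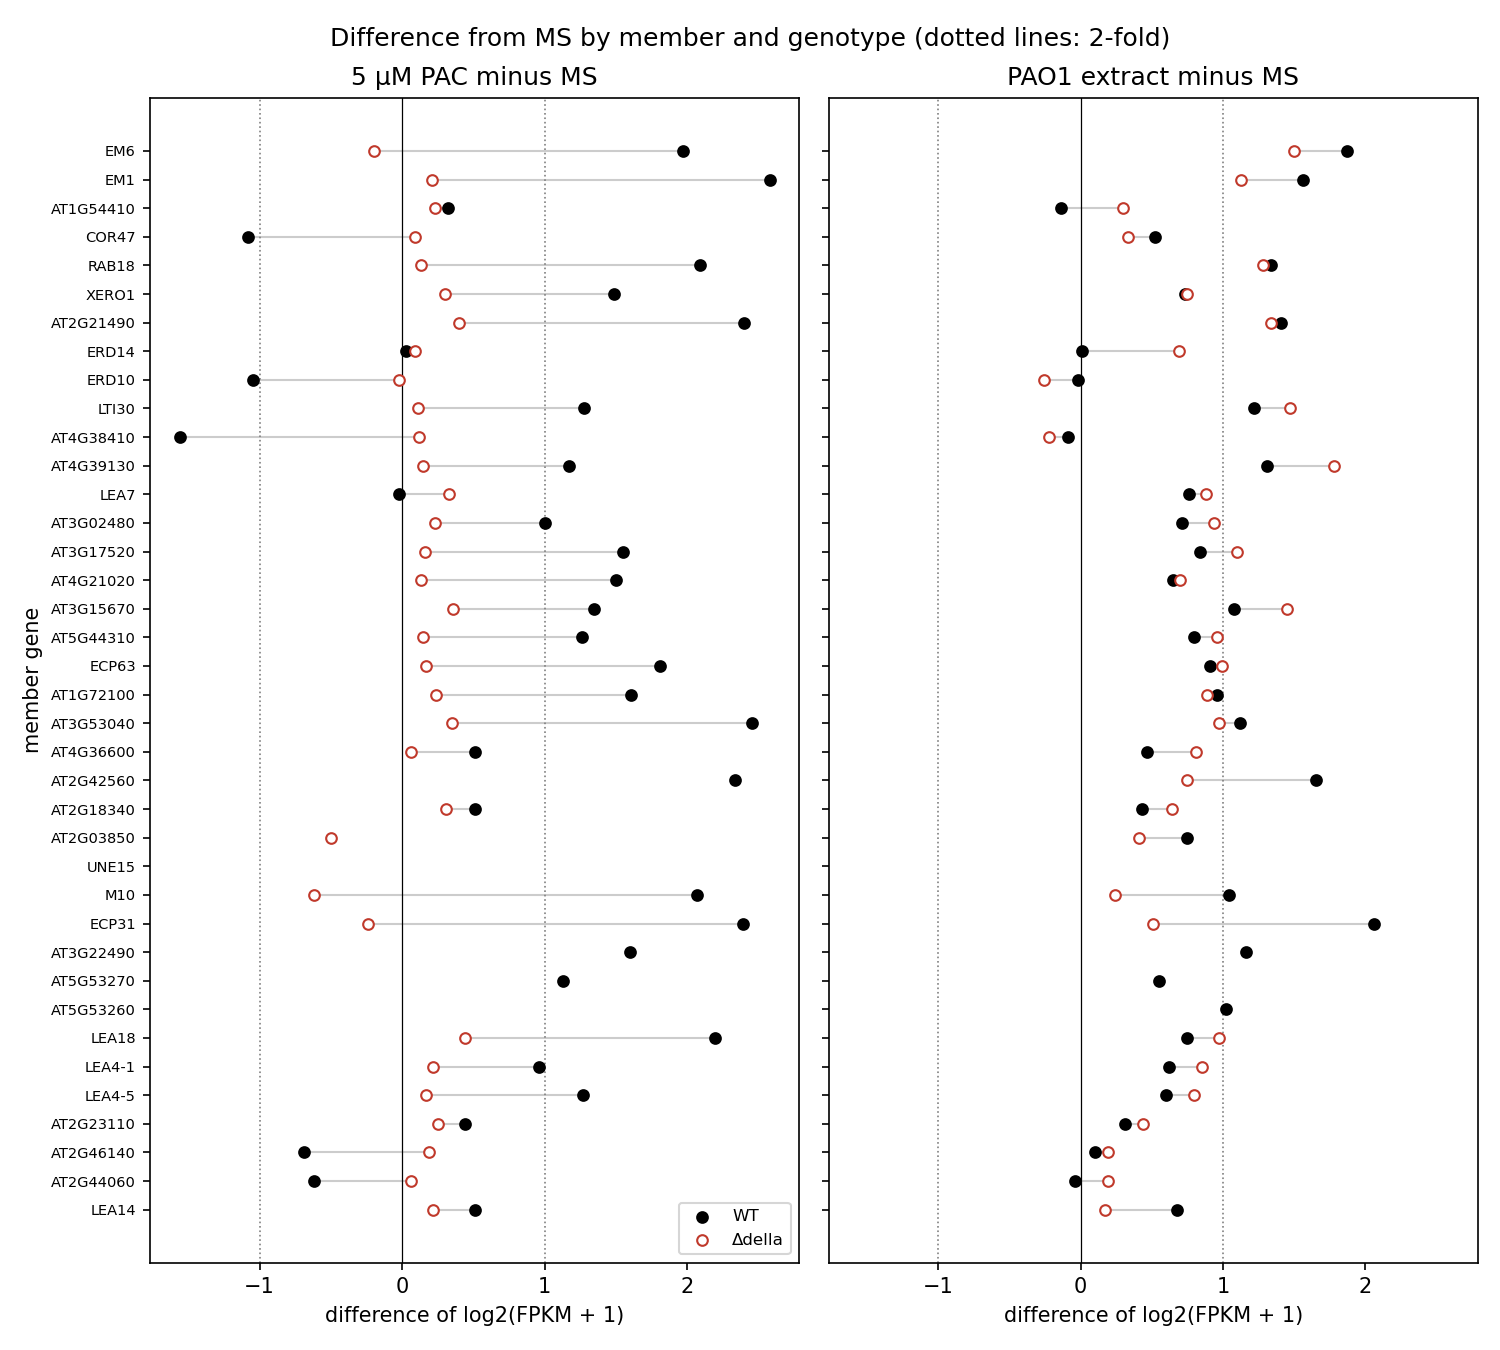
Difference of log2(FPKM + 1) from MS for each member that reached 1 FPKM in some group, with PAC on the left and extract on the right, WT as filled and Δdella as open circles, and dotted lines at 2-fold. On PAC the Δdella circles lie between -0.62 and 0.44 while WT circles reach 2.58, and on extract both genotypes reach past 2-fold, at most 2.06 in WT and 1.78 in Δdella seeds. Members under 1 FPKM in both groups compared have no circle.

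In Δdella seeds the extract could also be compared with and without GA. GA added to extract left all 34 measured members within 2-fold of extract alone (0.524% of all genes higher and 0.265% lower), with differences between -0.25 and 0.26. Extract and GA against MS gave 7 higher members of 34 (1.02% of all genes) and none lower (0.48%), with a median of 0.74. Extract and GA against PAC and GA gave 6 higher (1.08% of all genes) and none lower (0.498%), with a median of 0.62. The comparisons of extract with MS and of extract and GA with PAC and GA share no group, and 33 of 34 members had the same sign in them (Spearman 0.83), against 65.5% of all genes (Spearman 0.43). The comparison of extract and GA with PAC and GA in WT seeds also shares no group with that of extract with MS in Δdella seeds, and there 24 of 34 members had the same sign (Spearman 0.03), against 58.2% of all genes (Spearman 0.21). These are descriptions over genes, which are not independent replicates.

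In WT seeds GA was added to extract as well. Against extract alone, 8 of 37 members were at least 2-fold lower (0.899% of all genes) and 1, AT2G03850 with 1.05, was higher (0.524%). The lower members were ECP31 (-2.95), M10 (-1.98), AT2G42560 (-1.92), EM6 (-1.78), RAB18 (-1.75), AT3G22490 (-1.33), LTI30 (-1.08) and EM1 (-1.05). The median over members was -0.05 and the members' share of the summed FPKM was 0.512% on extract and 0.503% on extract and GA. Against MS, extract and GA gave 4 higher members of 35 (0.734% of all genes) and none lower (0.835%), with a median of 0.53. They were AT2G03850 (1.80), AT3G02480 (1.41), LEA7 (1.27) and AT3G15670 (1.16), all of the LEA_4 family. Against PAC and GA, AT2G03850 (1.15), LEA7 (1.07) and AT4G36600 (1.05) were higher (0.826% of all genes) and none of 36 was lower (1.16%), with a median of 0.16.

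The genotypes were compared on each medium. On MS, 8 of 35 members were at least 2-fold lower in Δdella than in WT seeds (1.87% of all genes) and 4 higher (4.08%), with a median of 0.12. The lower members were M10 (-2.69), ECP31 (-2.09), AT2G42560 (-1.83), RAB18 (-1.76), EM6 (-1.50), LTI30 (-1.28), EM1 (-1.20) and AT3G22490 (-1.02). AT3G02480 (1.39), AT2G03850 (1.27), AT4G38410 (1.20) and LEA7 (1.14) were the higher ones. The 5 storage genes were all at least 2-fold lower in Δdella seeds on MS.

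The 8 members lower in Δdella seeds on MS were the same 8 that were lower with GA in WT seeds on extract, in comparisons that share no group. Of the members measured in both, AT3G53040 was the nearest outside the set, with -0.75 between genotypes and -0.78 with GA. AT5G53260, under 1 FPKM in both genotypes on MS, had -0.86 with GA. The members nearest inside the set were AT3G22490, with -1.02 between genotypes, and EM1, with -1.05 with GA. The match depended on the setting. With a minimum of 5 FPKM, 5 members were lower between genotypes and 8 with GA. With a pseudocount of 0.1 these counts were 8 and 9, and at a 1.5-fold threshold 9 and 11, so the sets differed there. Over the 35 members measured in both comparisons the differences had a Spearman correlation of 0.81 and a Pearson correlation of 0.91, and over 16528 genes 0.39 and 0.38, as a description over genes that share libraries and depth within each comparison. How many of all genes were lower in both comparisons was not computed, so the match of the 8 has no such share beside it. The 8 were not particular to GA on extract. With GA added to PAC in WT seeds, which also shares no group with the genotypes on MS, all 8 were at least 2-fold lower, with a median of -2.12. They were among 16 lower members of 37 there (1.96% of all genes). Its differences had a Spearman correlation with those between genotypes of 0.82 over 35 members and 0.42 over 16459 genes. Together the 8 members summed to 245, 1090, 247, 672 and 196 FPKM in WT seeds and to 65.3, 66.1, 65.5, 158 and 163 FPKM in Δdella seeds. The lower sums in Δdella seeds on MS and with GA in WT seeds on extract follow from how the 8 were called. The 23 measured members within 2-fold between genotypes on MS summed to 3540 FPKM on extract and 3810 FPKM on extract and GA in WT seeds, with a median difference of 0.09.

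**Figure D5:**
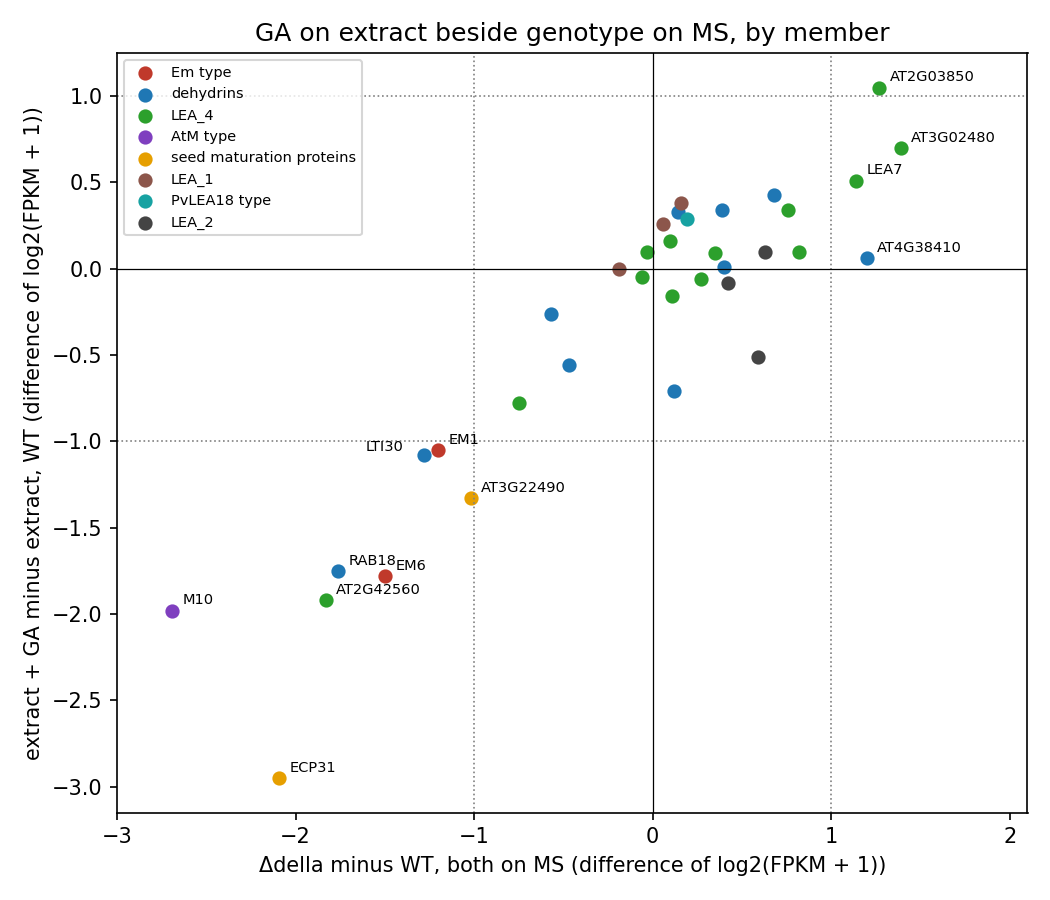
Difference of log2(FPKM + 1) between Δdella and WT seeds on MS (horizontal axis) and between extract and GA and extract alone in WT seeds (vertical axis) for the 35 members measured in both, coloured by family, with dotted lines at 2-fold. The 8 members from EM1 to M10 lie in the lower left beyond both lines, and AT2G03850 alone lies beyond both in the upper right.

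On PAC, 18 of 36 members were at least 2-fold lower in Δdella seeds (6.0% of all genes) and 7 higher (9.86%), with a median of -1.03. M10 (-5.38), ECP31 (-4.71), AT2G42560 (-3.96), RAB18 (-3.71), EM6 (-3.67) and EM1 (-3.57) had the largest differences, and AT4G38410 (2.89) and COR47 (1.57) were the highest in the other direction. On PAC and GA, 8 of 36 were lower (2.58%) and 3 higher (4.72%), with a median of -0.14. On extract, 9 of 37 were lower (2.28%) and 5 higher (4.22%), with a median of 0.13. On extract and GA, M10 alone of 35 was lower, with -1.40 (1.03%), and 3 were higher (2.74%), with a median of 0.06. EM6 and RAB18 differed by 0.11 and 0.02 between genotypes there, both lower in Δdella seeds. Over the 8 members lower in Δdella seeds on MS the median there was -0.49, and 7 of 8 were below 0.

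The members with an ABRE core in the promoter window were compared with the rest. Of the 30 measured members with a site, 20 were at least 2-fold higher with PAC in WT seeds (3.25% of all genes). The 1 lower member (4.32% of all genes) was AT4G38410, with 2 sites, and the median was 1.31. The shares among all genes with or without a site were not computed, so it is unknown whether the split is particular to the members. Of the 5 measured members without a site, 2, ECP31 (2.39) and LTI30 (1.28), were higher and 2, COR47 and ERD10, lower, with a median of -0.62. Only 6 of the 11 members without a site reached 1 FPKM in any group. For COR47 the RefSeq start that sets the window lies 1101 bases from the deposited start. The split was not repeated with the deposited starts. Both sets are small, and the difference between them was not tested.

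LEA genes outside the 44 members and transcription factors of seed maturation were looked at as further genes of the pathway. Of 6 other LEA genes, 5 were measured, and M17 and RAB28 were at least 2-fold higher in WT seeds with either treatment, PAC or extract. M17, an AtM-type gene like M10, was at 56.4, 295, 46.9, 132 and 21.4 FPKM in WT seeds and between 3.38 and 6.36 FPKM in Δdella seeds. Of 16 transcription factors, 12 were measured with PAC. EEL (1.83), ABF4 (1.27) and FUS3 (1.01) were higher in WT seeds (3.25% of all genes) and ABI4 (-1.75) lower (4.32%). FUS3 was at 0.13 FPKM on MS and 1.28 FPKM on PAC, so it was measured through its PAC value alone and lies near the minimum. ABI5, a bZIP activator of the Em genes, was at 35 FPKM on MS, 70.4 FPKM on PAC and 44.7 FPKM on extract in WT seeds. Its difference with PAC was 0.99, just under the threshold. None of 11 measured factors was 2-fold different with extract in either genotype, where 1.56% of all genes in WT and 1.51% in Δdella seeds were. With so few factors and such shares, none is a likely count for any 11 genes.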

How the data were processed

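The transcriptomes of WT and Δdella seeds came from 20 libraries (TruSeq Stranded mRNA, single-end 50 bp reads), 2 per group. Mapping to TAIR10 was done by the authors with TopHat, and Cuffdiff was run on the Galaxy server with the replicates of a group pooled. The sources used here do not name the tool versions, the annotation release, the normalization or the use of strand. Deposited by the authors was a table with 1 FPKM per gene and group for 33557 genes, repeated over 45 pairs of groups. It also holds the authors' fold changes, test statistics, p-values and q-values, which were not used. Samples were assigned to groups by their titles. Reads per library are unknown, so no counting interval can be given.

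From these FPKM values, differences of log2(FPKM + 1) were computed for 15 planned comparisons, and for 2 more chosen after the values were seen (extract and GA against extract, and against PAC and GA, in Δdella seeds). Genes with at least 1 FPKM in 1 of the 2 groups were kept. The pooled values allow no test over replicates, and the authors' own tests were left out because they hold the study's findings. A difference of 1 or more is called at least 2-fold. The function that makes these calls was tested on simulated data. Members and lists were chosen with earlier results of these data known. Named are EM1, EM6, RAB18, the 10 members with the largest difference for PAC, for extract and for genotype on MS, the 3 highest on MS, and members that moved against most others. The rest are given by single values or ranges. Alternatives were a pseudocount of 0.1, no minimum, a minimum of 5 FPKM, a 1.5-fold threshold and scaling by median ratios. Promoter windows came from the RefSeq annotation of TAIR10.1 (all deposited nuclear loci lie within its chromosomes), and 32810 of the 33557 identifiers were matched by locus tag. Exon overlaps and shared stretches of 50 bases were taken from the same annotation and genome. Python 3.11.15, numpy 2.4.6, pandas 2.3.3 and matplotlib were used.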

Additional observations from a re-analysis of the deposited data

How the results depend on the processing

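Scaling by median ratios and a minimum of 5 FPKM left all 17 counts of 2-fold different members within 1.5 times. Values without replicates have no spread to compare with, so medians are called moved when they shift by 0.1 or more on the log2 scale. A 1.5-fold threshold gave more members: in WT seeds 7 in place of 1 for PAC and GA against MS, 26 in place of 13 for extract against MS, 18 in place of 4 for extract and GA against MS, and 9 in place of 3 against PAC and GA. In Δdella seeds it gave 1 in place of 0 for PAC against MS, 23 in place of 8 for extract, 22 in place of 7 for extract and GA, and 18 in place of 6 against PAC and GA. Between genotypes it gave 20 in place of 11 on PAC and GA, 22 in place of 14 on extract, and 10 in place of 4 on extract and GA. The share of all genes past the threshold was larger too in all 17 comparisons, for example 4.41% in place of 1.56% for extract against MS in WT seeds and 17.2% in place of 7.3% between genotypes on PAC and GA. A pseudocount of 0.1 gave 2 in place of 1 for PAC and GA against MS in WT seeds, a median of 1.44 in place of 1.27 for PAC against MS, and -1.18 in place of -1.03 between genotypes on PAC, where a minimum of 5 FPKM gave -1.14. With no minimum, genes near 0 FPKM enter the medians. They became 0.98 for PAC against MS, -0.58 for PAC and GA against PAC and 0.32 for extract and GA against MS in WT seeds. In Δdella seeds they became 0.67 for extract and 0.59 for extract and GA against MS, and 0.48 for extract and GA against PAC and GA. Between genotypes they became 0.0 on MS, -0.5 on PAC and 0.02 on extract. No value of EM1, EM6 or RAB18 that was at least 2-fold changed its sign. No paired analysis was possible because the deposited values pool the replicates of each group, and no replicate could be left out for the same reason.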
